A study of Rattus norvegicus with 12 samples.

Results

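Skeletal muscle forms when precursor cells switch on a family of basic helix-loop-helix transcription factors that bind a short DNA motif, the E-box, as partners of widely expressed E proteins. *Myf5* and *Myod1* commit cells to the muscle lineage, *Myog* (myogenin) turns on the genes of the fused myotube, and *Myf6* (MRF4) acts late and in mature fibres. The MEF2 proteins work beside this family on muscle promoters, *Pax7* is the factor of satellite cells, the stem cells of muscle, and *Six4* is a homeodomain factor that binds the MEF3 motif. The 9 genes examined were *Myog*, *Myod1*, *Myf5*, *Myf6*, *Mef2a*, *Mef2c*, *Mef2d*, *Pax7* and *Six4*, picked by name and matched to probes by the RefSeq accession that each probe carries. Of these 9 genes, 8 had a matched probe and all 8 were tested, out of 16581 genes named on the arrays and 10741 named and tested. *Mef2c* had no matched probe.

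Rat L6 cells, a skeletal muscle line, were differentiated for 6 days by the sample labels (7 days by the paper) and then kept for 24 h with GR24, pinosylvin or resveratrol at 60 µM, or with DMSO alone as the control. GR24 is a synthetic strigolactone, and the other compounds are stilbenes, of which resveratrol carries one more hydroxyl group than pinosylvin. Each of the 4 groups has 3 arrays from independent experiments with the same batch of cells, numbered as replicates 1 to 3, and the arrays of replicates 1 and 2 were on slide 1 and those of replicate 3 on slide 2. A level is the log2 of a probe's signal less that of the array's 75th percentile, so 0 is the 75th percentile and a step of 1 is a doubling, and levels of different probes are not set against each other.

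Differences between groups are log2 fold changes from limma's moderated test on all 12 arrays, without pairing of the replicates unless a block is named. A difference passed where p, adjusted by Benjamini-Hochberg over all 24279 tested probes, was under 0.05, and errors are SE. A probe was tested if its signal was well above background, by the scanner software's mark, on all 3 arrays of at least 1 group. Each compound was set against the same 3 control arrays, so those comparisons share them, and the 3 pairs of compounds were compared with p adjusted over all tested probes in the same way.

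With GR24, 5 of the 8 tested members passed, 1 higher (*Six4*) and 4 lower (*Myog*, *Myod1*, *Myf5* and *Myf6*), where 31.5% of all tested probes were higher and 25.5% were lower. With pinosylvin 2 were higher (*Myog* and *Mef2d*) and 1 was lower (*Myf6*), beside 8.28% and 8.27% of all tested probes. With resveratrol 0 were higher and 3 were lower (*Myog*, *Myod1* and *Myf6*), beside 7.99% and 8.99%. By limma with the replicate number as a block, the resveratrol count went from 3 to 5, as *Mef2d* and *Six4* passed as higher. With that block 3419 of all 24279 tested probes were higher and 3350 lower with resveratrol. For pinosylvin the count went from 3 to 4, as *Six4* passed as higher, beside 3954 higher and 2993 lower probes. In these counts and those between compounds *Mef2d* stands by 1 of its 2 tested probes, and the other was higher with GR24 than in each other group and lower with resveratrol than in the control. The median log2 fold change of the 8 members was -0.61 with GR24, 0.19 with pinosylvin and -0.02 with resveratrol, and over all tested probes it was 0.03, 0.05 and 0.01.

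Between compounds, 6 members were lower with GR24 than with pinosylvin (*Myog*, *Myod1*, *Myf5*, *Myf6*, *Mef2d* and *Pax7*) and 4 were lower with GR24 than with resveratrol (*Myog*, *Myod1*, *Myf5* and *Myf6*), and no member was higher. With the replicate block the counts were 7 and 6, as *Six4* passed as higher with GR24 in both comparisons and *Mef2d* as lower than with resveratrol. Without the block these comparisons called 56.4% and 51.4% of all tested probes in either direction. With it they called 16158 and 14855 of the 24279 tested probes. For GR24 against resveratrol the count was 7 without resveratrol replicate 3, with *Mef2d* and *Pax7* added as lower and *Six4* as higher. Between the stilbenes, 2 members differed, *Myog* and *Myod1*, which were higher with pinosylvin, beside 14.5% of all tested probes. That count was 1 without pinosylvin replicate 1, resveratrol replicate 2 or resveratrol replicate 3.

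**Figure D1:**
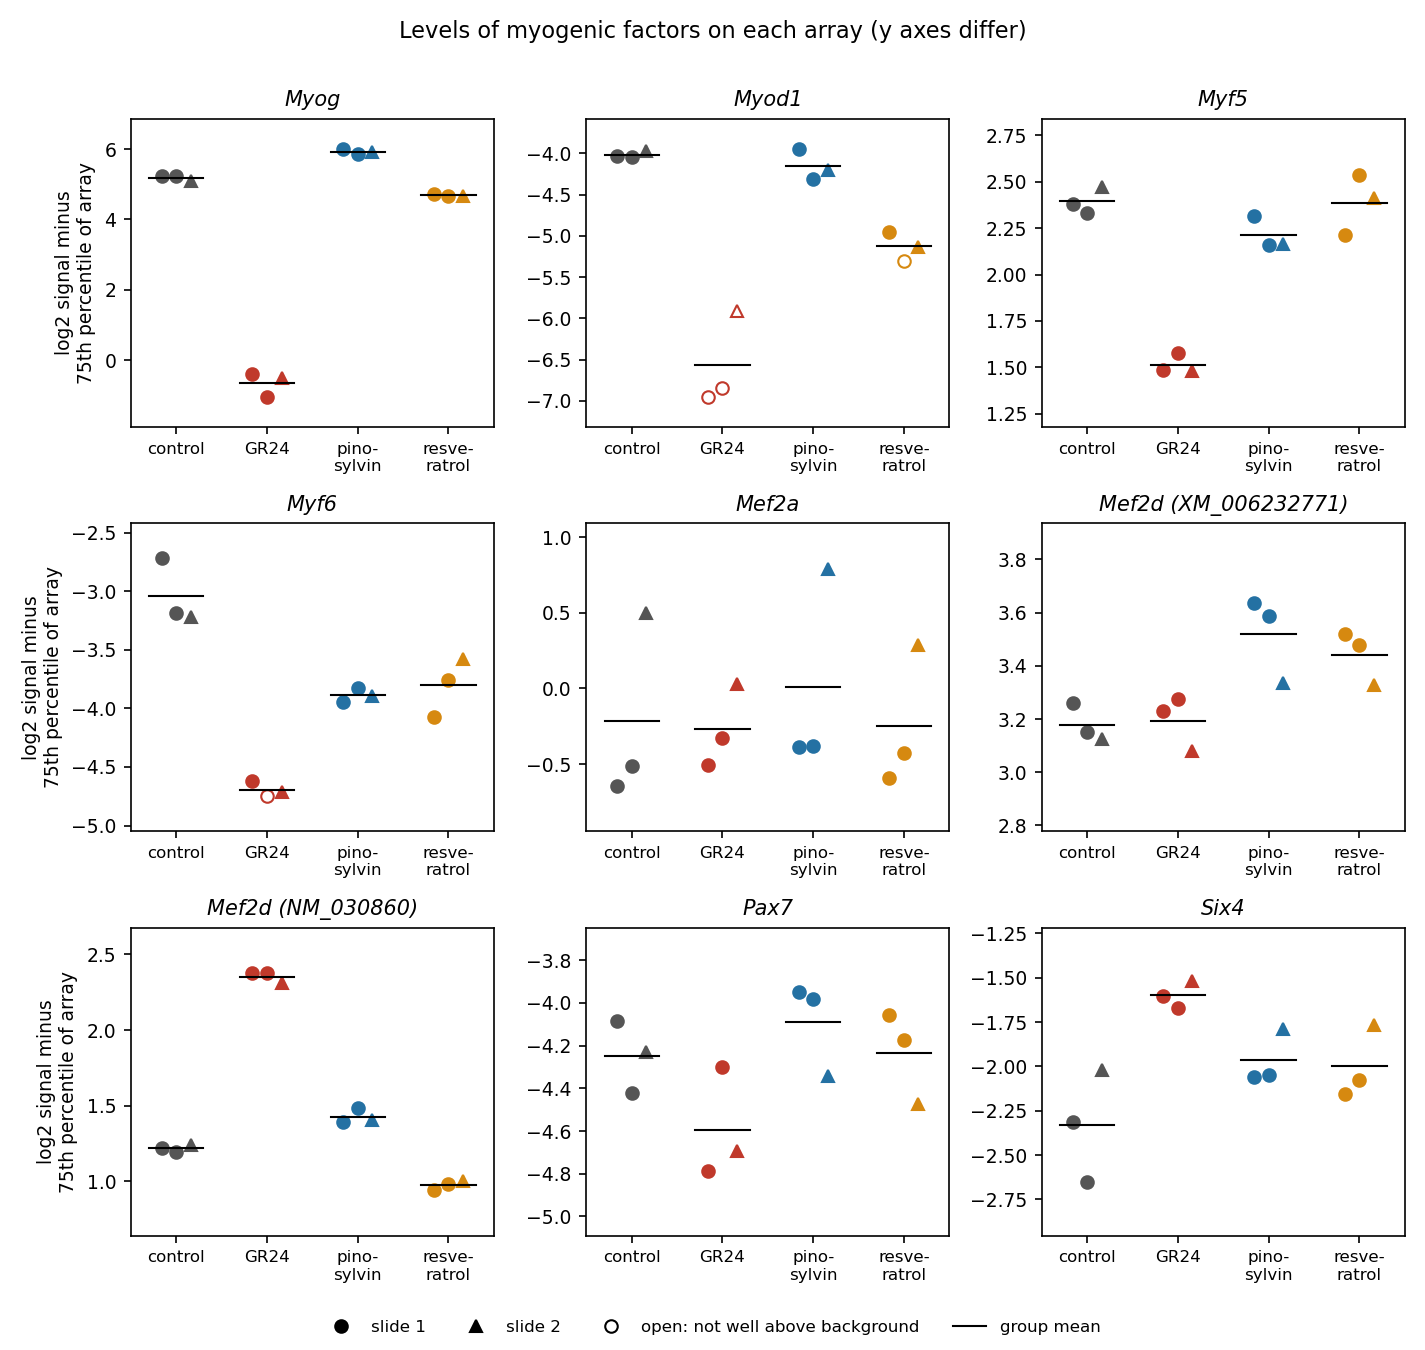
Level of each member probe on each array, in log2 units relative to the array's 75th percentile, by group, with slide 1 as circles, slide 2 as triangles, group means as lines and open signs for signals not well above background. *Myog* ranged from -1.05 on a GR24 array to 6.01 on a pinosylvin array.

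*Myog*, the factor of terminal differentiation, had levels of 5.24, 5.25 and 5.08 on the control arrays in the order of replicates 1 to 3. The GR24 arrays had -0.38, -1.05 and -0.50, the pinosylvin arrays 6.01, 5.85 and 5.91, and the resveratrol arrays 4.72, 4.67 and 4.65. All 4 groups were apart from one another with no overlap, in the order pinosylvin, control, resveratrol and GR24. The group means were 5.19 ± 0.09 (SD, n = 3) in the control, -0.64 ± 0.36 with GR24, 5.92 ± 0.08 with pinosylvin and 4.68 ± 0.03 with resveratrol.

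With GR24, *Myog* fell 57.0-fold, a log2 fold change of -5.83 (SE 0.15, limma adjusted p = 5.53e-10), and only 1 of all tested probes had a larger fitted decrease. Within slide 1 the difference was -5.96 and within slide 2 it was -5.58. With pinosylvin *Myog* rose by 0.73 (SE 0.15, adjusted p = 0.00654), or 1.66-fold, with 0.68 on slide 1 and 0.83 on slide 2. That increase did not pass with the arrays of slide 1 alone (adjusted p = 0.0792). With resveratrol it fell by 0.51 (SE 0.15, adjusted p = 0.0375), with -0.55 and -0.43 on the slides. This call was lost without control replicate 1 or 2, without any single pinosylvin array and without any single resveratrol array (adjusted p up to 0.111), and also with no filter on dim probes or with slide 1 alone (up to 0.122).

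Between compounds, *Myog* was 94.6-fold lower with GR24 than with pinosylvin and 40.1-fold lower than with resveratrol, in each case the largest fitted decrease of all tested probes. Between the stilbenes it was 2.36-fold higher with pinosylvin, a log2 difference of 1.24 (95% interval 0.92 to 1.56, adjusted p = 0.000375). The stilbene difference passed under every alternative that has a test, with adjusted p up to 0.0167.

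*Myod1*, which commits cells to the muscle lineage, gave a dim probe, with -4.04, -4.04 and -3.97 on the control arrays and -6.95, -6.84 and -5.91 with GR24. The pinosylvin arrays had -3.94, -4.31 and -4.20, and the resveratrol arrays -4.95, -5.30 and -5.14. The pinosylvin arrays overlapped with the control, the resveratrol arrays lay below both, and the GR24 arrays lay below all others. The signal was well above background on 0 of 3 GR24 arrays and on 2 of 3 resveratrol arrays.

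Apart from *Smpx*, for which no limit is given, a probe that failed this mark throughout a group gets only a lower limit for its change, written "at least". The dim group is set no lower than the lowest signal on its array that had the mark. For *Myod1* the signal with GR24 was at least 3.21-fold under the control (fitted value -2.55, SE 0.23, adjusted p = 5.46e-06), with -2.86 and -1.94 on the slides. It was at least 2.92-fold under pinosylvin and at least 1.49-fold under resveratrol. These limits hold for one background correction only, and with normexp, another correction, the GR24 change was -0.63.

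With resveratrol, *Myod1* fell 2.16-fold (-1.11, SE 0.23, adjusted p = 0.00846), with -1.09 on slide 1 and -1.16 on slide 2. With normexp this change was -0.40 after scaling to the 75th percentile and -0.30 after quantile normalization, and it passed in both. With pinosylvin the difference was -0.14 (95% interval -0.65 to 0.38, adjusted p = 0.774). Between the stilbenes *Myod1* was higher with pinosylvin by 0.98 (95% interval 0.46 to 1.49, adjusted p = 0.0194), and by 0.39 or 0.26 with normexp. That call was lost without pinosylvin replicate 1, resveratrol replicate 2 or resveratrol replicate 3 (adjusted p up to 0.0768), and with the deposited table or with no filter (up to 0.0737).

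*Myf5*, the other factor of lineage commitment, had 2.38, 2.33 and 2.47 on the control arrays and 1.49, 1.58 and 1.48 with GR24. The other arrays had 2.32, 2.16 and 2.16 with pinosylvin and 2.21, 2.54 and 2.41 with resveratrol. The GR24 arrays lay below all 9 others, the pinosylvin arrays lay just under the control, and the resveratrol arrays overlapped with both. *Myf5* fell 1.84-fold with GR24 (-0.88, SE 0.09, adjusted p = 1.21e-05), with -0.82 and -0.99 on the slides and -0.99 to -0.77 over the alternatives.

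The difference of *Myf5* from the control was -0.18 with pinosylvin (95% interval -0.38 to 0.02, adjusted p = 0.209) and -0.01 with resveratrol (-0.21 to 0.19, adjusted p = 0.979). It was lower with GR24 than with pinosylvin by 0.70 (adjusted p = 7.07e-05) and than with resveratrol by 0.87 (adjusted p = 1.76e-05). Between the stilbenes the difference was -0.17 (95% interval -0.37 to 0.02) and did not pass.

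*Myf6*, the late factor of the family, had -2.72, -3.19 and -3.22 on the control arrays, -4.62, -4.75 and -4.71 with GR24, -3.94, -3.83 and -3.89 with pinosylvin and -4.07, -3.76 and -3.58 with resveratrol. Every array of every compound lay below every control array, the GR24 arrays were lowest, and the stilbene groups overlapped. The signal was not well above background on GR24 replicate 2. This was the 1 member that fell with all 3 compounds.

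*Myf6* fell 3.14-fold with GR24 (-1.65, SE 0.15, adjusted p = 4.6e-06), with -1.73 and -1.49 on the slides. It fell 1.80-fold with pinosylvin (-0.84, adjusted p = 0.00318; slides -0.93 and -0.67) and 1.69-fold with resveratrol (-0.76, adjusted p = 0.0056; slides -0.96 and -0.36). In the deposited table the resveratrol change did not pass (adjusted p = 0.0502). The sizes were smaller with normexp and the 75th percentile, at -0.64, -0.32 and -0.38 for GR24, pinosylvin and resveratrol. GR24 lay below pinosylvin by 0.81 (adjusted p = 0.000841) and below resveratrol by 0.89 (adjusted p = 0.000499), while the stilbenes differed by -0.08 (95% interval -0.41 to 0.24).

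**Figure D2:**
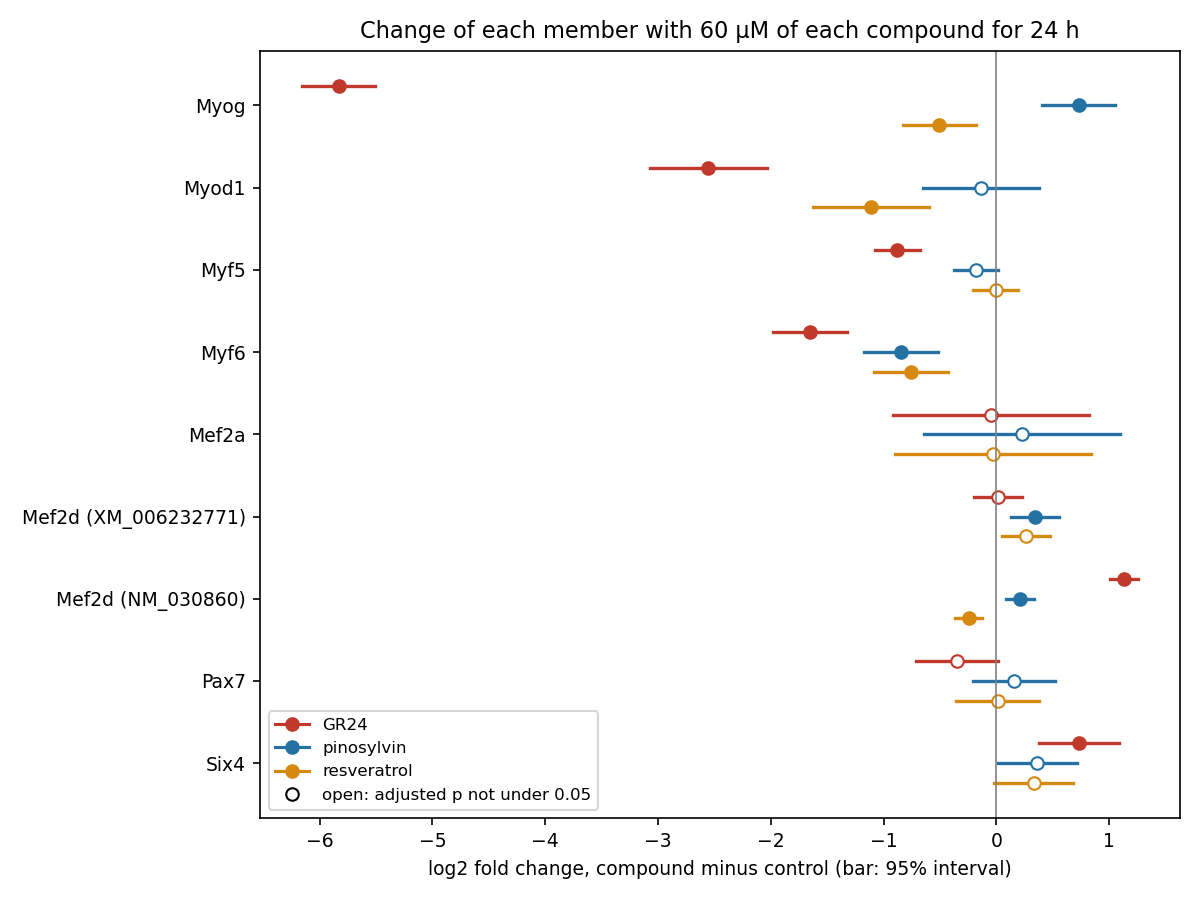
Log2 fold change of each member probe with each compound against the control, with 95% intervals as bars and open signs where the adjusted p was not under 0.05. The values ran from -5.83 for *Myog* with GR24 to 1.13 for the *Mef2d* probe NM_030860 with GR24.

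*Mef2a*, a MEF2 factor found in many tissues, had -0.64, -0.51 and 0.50 on the control arrays and -0.50, -0.32 and 0.03 with GR24. It had -0.38, -0.38 and 0.79 with pinosylvin and -0.59, -0.43 and 0.29 with resveratrol. All groups overlapped, and in 4 of 4 groups replicate 3, the array on slide 2, was the highest, by 0.87 over slide 1 (SE 0.11, adjusted p = 0.000282). The differences from the control were -0.05 with GR24 (95% interval -0.92 to 0.82), 0.23 with pinosylvin (-0.64 to 1.09) and -0.03 with resveratrol (-0.90 to 0.84), and none passed. The stilbenes differed by 0.25 (-0.61 to 1.12). These wide intervals hold the difference between the slides, which cannot be told apart from that of replicate 3 from the other replicates. With the replicate block the SE of each difference was 0.14 in place of 0.39. Pair by pair, pinosylvin less control was 0.26, 0.13 and 0.29, and with the block it still did not pass (adjusted p = 0.267), nor did GR24 (0.782), resveratrol (0.908) or the stilbene difference (0.218).

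*Mef2d*, a MEF2 factor expressed through muscle differentiation, had probes for 2 RefSeq accessions, and they did not behave alike. The brighter one, XM_006232771, stands for the gene and had 3.26, 3.15 and 3.12 on the control arrays and 3.23, 3.27 and 3.08 with GR24. With pinosylvin it had 3.64, 3.59 and 3.33, and with resveratrol 3.52, 3.48 and 3.33. The GR24 arrays overlapped with the control, and both stilbene groups lay above the control with overlap between them.

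For XM_006232771 the GR24 difference was 0.01 (95% interval -0.20 to 0.23, adjusted p = 0.916). With pinosylvin it rose by 0.34 (adjusted p = 0.0354; slides 0.41 and 0.21), a call lost without any single control array, GR24 replicate 1, pinosylvin replicate 1 or 2, or resveratrol replicate 2 (adjusted p up to 0.126), and with no filter or only the 6 arrays compared (up to 0.116). With resveratrol the difference was 0.26 (adjusted p = 0.091, and 0.00884 with the replicate block). It was lower with GR24 than with pinosylvin by 0.33 (adjusted p = 0.014), which was lost without GR24 replicate 3 or pinosylvin replicate 1 or 2 (up to 0.0573). Against resveratrol the difference was -0.25 (adjusted p = 0.0512, and 0.00414 with the replicate block), and between the stilbenes 0.08 (95% interval -0.14 to 0.29). The difference from resveratrol passed without pinosylvin replicate 3 or resveratrol replicate 3 (0.0255 and 0.0391) and under several other alternatives.

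The other *Mef2d* probe, NM_030860, had 1.22, 1.20 and 1.24 on the control arrays and 2.37, 2.38 and 2.31 with GR24. With pinosylvin it had 1.40, 1.49 and 1.40, and with resveratrol 0.94, 0.98 and 1.00. No group overlapped with another, and the order was GR24, pinosylvin, control and resveratrol. This probe rose 2.19-fold with GR24 (1.13, adjusted p = 4.88e-08; slides 1.17 and 1.07). It was higher with GR24 than with pinosylvin by 0.93 (adjusted p = 2.69e-07) and than with resveratrol by 1.38 (adjusted p = 2.8e-08), the opposite of XM_006232771, and was higher with pinosylvin than with resveratrol by 0.45 (95% interval 0.33 to 0.58, adjusted p = 0.000461).

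The same probe rose by 0.21 with pinosylvin (adjusted p = 0.0272), which was lost without control replicate 1 or 2 or pinosylvin replicate 1 or 2 (adjusted p up to 0.109) and under 6 other alternatives (up to 0.141). It fell by 0.25 with resveratrol (adjusted p = 0.0121), which was lost with no filter on dim probes and with only the 6 arrays compared (up to 0.0733). With the mean over both probes, *Mef2d* was 0.57 higher with GR24 than in the control (adjusted p = 3.17e-05) and higher with pinosylvin than with resveratrol (adjusted p = 0.0236), and it was higher with GR24 than with pinosylvin by 0.30 and than with resveratrol by 0.57. Which transcripts each probe reads was not tested.

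*Pax7*, the satellite cell factor, gave a dim signal, with -4.09, -4.42 and -4.23 on the control arrays and -4.79, -4.30 and -4.69 with GR24. Pinosylvin arrays had -3.95, -3.98 and -4.34, and resveratrol arrays -4.06, -4.17 and -4.47. The groups overlapped, since GR24 replicate 2 lay among the control arrays while the other GR24 arrays lay below them. The GR24 difference was -0.35 (95% interval -0.71 to 0.02, adjusted p = 0.0978), and it passed without GR24 replicate 2 (adjusted p = 0.0274). With pinosylvin it was 0.16 (-0.21 to 0.52) and with resveratrol 0.01 (-0.35 to 0.38).

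Between compounds, *Pax7* was lower with GR24 than with pinosylvin by 0.50 (adjusted p = 0.0232). That call was lost without GR24 replicate 1 or 3 or pinosylvin replicate 1 or 2 (adjusted p up to 0.0894), and with 5 other alternatives (up to 0.187). The difference was -0.36 against resveratrol (adjusted p = 0.0943, but 0.0275 without GR24 replicate 2 and 0.0469 without resveratrol replicate 3) and 0.14 between the stilbenes (95% interval -0.22 to 0.51). Against resveratrol *Pax7* also passed with the slide as a block. Another *Pax7* probe, NM_001191984, had no array with a signal well above background and was not tested.

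*Six4*, a homeodomain factor that acts upstream of *Myog*, had -2.31, -2.65 and -2.02 on the control arrays and -1.60, -1.67 and -1.52 with GR24. Pinosylvin arrays had -2.06, -2.05 and -1.79, and resveratrol arrays -2.16, -2.08 and -1.77. The GR24 arrays lay above all 9 others, the stilbene arrays overlapped with the control, and in 4 of 4 groups the array on slide 2 was the highest, by 0.30 (SE 0.07, adjusted p = 0.00989). *Six4* rose 1.66-fold with GR24 (0.73, SE 0.16, adjusted p = 0.00232; slides 0.85 and 0.50), with adjusted p up to 0.00936 over the alternatives.

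*Six4* differed from the control by 0.36 with pinosylvin (adjusted p = 0.154, and 0.0229 with the replicate block) and by 0.33 with resveratrol (0.199, and 0.0338 with the block). GR24 lay above pinosylvin by 0.37 (adjusted p = 0.0695, and 0.00819 with the block) and above resveratrol by 0.40 (0.0544, and 0.00577 with the block). Among these, pinosylvin against the control passed without control replicate 3 (adjusted p = 0.0469), GR24 against pinosylvin without control replicate 2 or 3 (0.0336 and 0.0357), and GR24 against resveratrol without control replicate 2 or 3 or resveratrol replicate 3 (0.0253, 0.0267 and 0.0272). GR24 against either stilbene also passed under several other alternatives, slide 1 alone among them (0.021 and 0.0137). The stilbenes differed by 0.03 (95% interval -0.32 to 0.38). With the replicate block, *Six4* was thus higher with each of the 3 compounds.

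The proteins that the MyoD family works with are E proteins, homeodomain factors with their Eya cofactors and chromatin enzymes, and those that hold it back include the Id proteins and the Hes and Bhlhe repressors. Of 36 listed genes of this kind 24 were tested, and with GR24 6 rose and 8 fell (median -0.24), beside 31.5% and 25.5% of all tested probes. The balance is not settled: 6 rose and 11 fell with the replicate block, beside 8799 and 7365 of the 24279 tested probes. With quantile normalization 7 rose and 6 fell (median -0.15), beside 8719 and 5593 probes. *Tcf4*, an E protein that pairs with the MyoD family, fell by 1.29 with GR24 (SE 0.08, adjusted p = 3.73e-07), by 0.44 with pinosylvin (adjusted p = 0.00448) and by 0.41 with resveratrol (adjusted p = 0.00666). *Smarcd3*, the BAF60c subunit of the chromatin remodelling complex at muscle genes, fell by 1.02 with GR24 (adjusted p = 4.45e-05), and *Eya4*, a cofactor of *Six4* and its relatives, by 0.84 (adjusted p = 6.56e-06). These calls passed under every alternative that has a test.

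Among the inhibitors, which sequester E proteins or repress their targets, *Id2* rose by 1.22 with GR24 (adjusted p = 9.93e-07) while *Id4* fell by 1.27 (SE 0.35, adjusted p = 0.00983, and 0.0567 on slide 1 alone). *Id1* moved with pinosylvin, a fall of 0.77 (adjusted p = 0.000226), and its difference with GR24 was 0.04 (adjusted p = 0.766). It was lower with pinosylvin than with resveratrol by 0.73 (adjusted p = 0.000453). *Bhlhe40*, a repressor that binds E-boxes, rose by 1.07 with GR24 (adjusted p = 5.37e-06) and by 0.57 with resveratrol (adjusted p = 0.00282). *Hes1*, the Notch target, rose with all 3 compounds, by 0.65, 0.55 and 0.69 for GR24, pinosylvin and resveratrol (adjusted p = 0.00103, 0.0123 and 0.00371).

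In the same list 3 rose and 4 fell with pinosylvin (median 0.03), beside 8.28% and 8.27% of all tested probes. The count of increases was 1 without control replicate 3 or pinosylvin replicate 1. With the replicate block 5 rose and 5 fell, beside 3954 and 2993 of the 24279 tested probes. With resveratrol 3 rose and 3 fell (median -0.01), beside 7.99% and 8.99%, and 1 fell without control replicate 1 or 2 or resveratrol replicate 2 or 3.

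MEF2 activity is held back by class II histone deacetylases and raised by p38 and ERK5 kinases and by calcium signals through calcineurin and CaM kinases. Of 27 such regulators 20 were tested, with 6 higher and 4 lower with GR24 (median 0.13), beside the same 31.5% and 25.5%. When scaled to the percentile over all spots 10 were higher and 4 lower, beside 9223 and 5358 of the 24279 tested probes. *Smyd1*, a muscle methyltransferase, fell by 3.31 with GR24 (SE 0.13, adjusted p = 1.38e-08) and by 0.62 with resveratrol (adjusted p = 0.01), and was higher with pinosylvin than with resveratrol by 0.76 (adjusted p = 0.00407). *Mapk11*, a p38 kinase, had a signal near background on all GR24 arrays and was at least 4.08-fold lower than in the control (fitted value -2.30, adjusted p = 1.63e-06, and -0.66 with normexp). *Srf*, a partner of MEF2 on muscle genes, fell by 0.80 (adjusted p = 5.09e-06), and *Nfatc1*, a calcineurin target, by 0.74 (adjusted p = 0.00292).

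The MEF2 gene *Mef2b* rose by 0.80 with GR24 (adjusted p = 6.43e-05), and *Map2k3*, the kinase upstream of p38, by 0.75 (adjusted p = 3.44e-06). With pinosylvin 1 of the 20 regulators was higher and 2 were lower (median -0.00), beside 8.28% and 8.27% of all tested probes. With the replicate block 3 were higher and 3 lower, beside 3954 and 2993 of the 24279 tested probes. With resveratrol 2 were higher and 1 was lower (median 0.04), beside 7.99% and 8.99%. The higher counts of the stilbenes are small and not settled: with pinosylvin the count was 0 without any single control or pinosylvin array, GR24 replicate 1, or resveratrol replicate 1 or 2, and 2 without GR24 replicate 3. With resveratrol it was 0 without control replicate 1, GR24 replicate 1, pinosylvin replicate 2 or any single resveratrol array, and 1 without control replicate 2 or 3, GR24 replicate 2 or pinosylvin replicate 1.

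**Figure D3:**
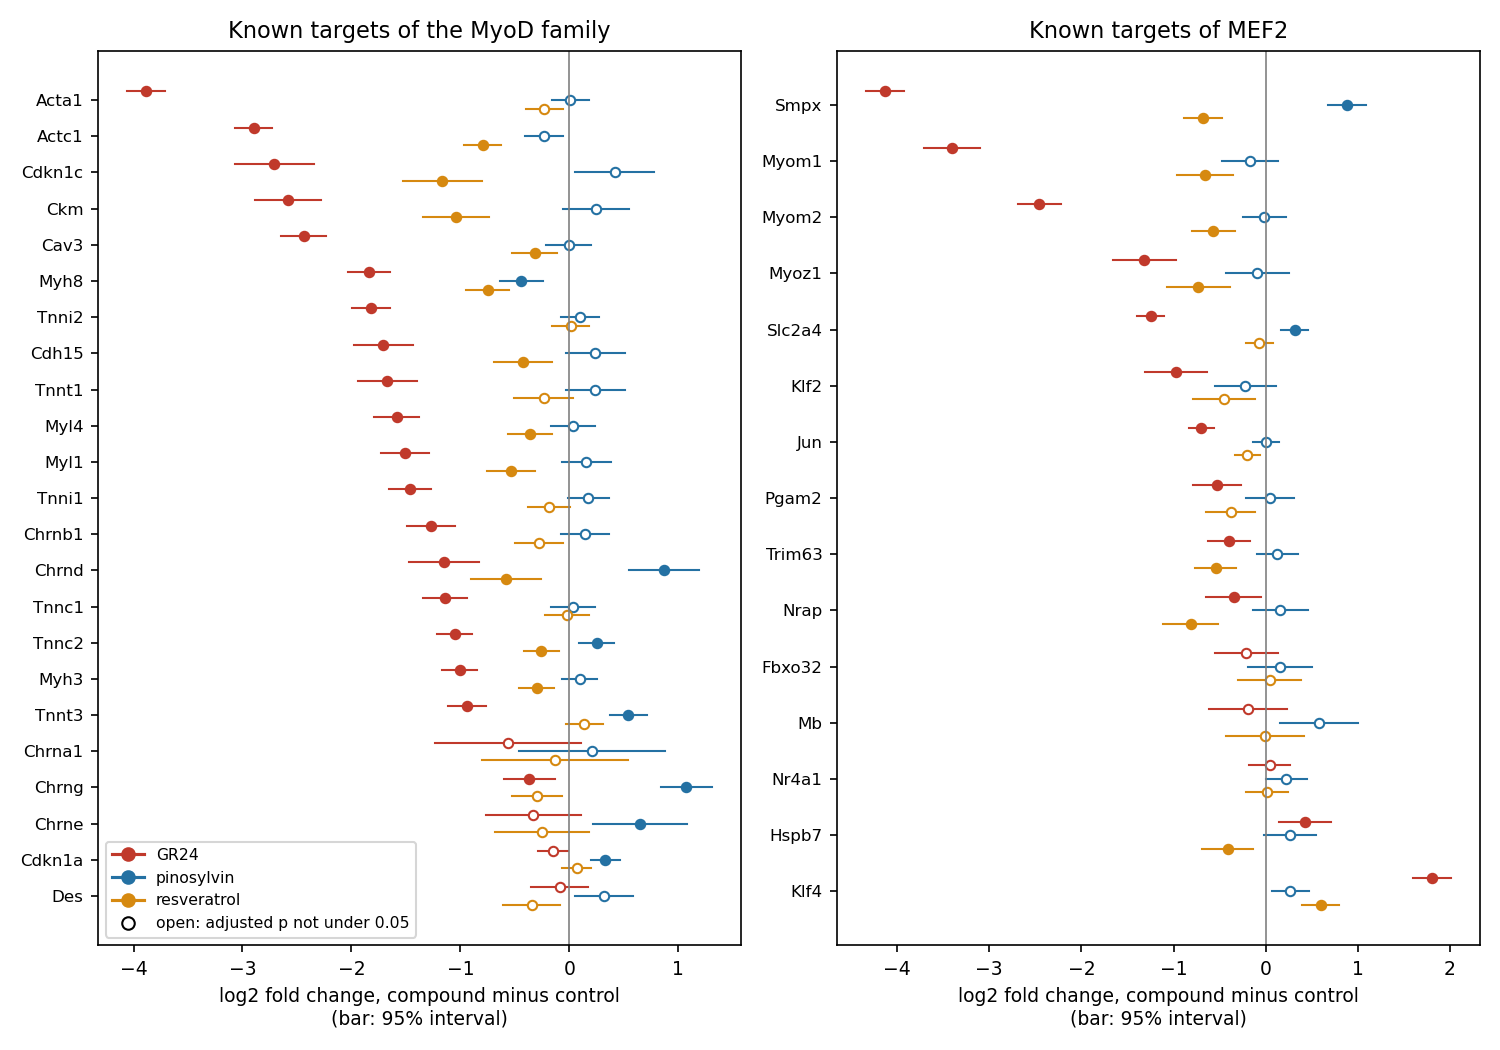
Log2 fold changes with each compound against the control, with 95% intervals, of the known targets of the MyoD family (left) and of MEF2 (right), ordered by the GR24 value. With GR24 the values ran from -3.88 to -0.09 on the left and from -4.13 to 1.80 on the right. The -4.13 is the fitted value of *Smpx*, which was near background on all GR24 arrays, so its size is not settled.

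Of 26 known targets of the MyoD family, contractile proteins, acetylcholine receptor subunits, fusion proteins and cell cycle inhibitors, 23 were tested. With GR24 19 fell and 0 rose (limma, median -1.46), beside 25.5% and 31.5% of all tested probes. Of the others *Des* and *Chrne* did not pass, and *Cdkn1a* and *Chrna1* were lower with the replicate block but not in the main test. With the block 21 were lower, beside 7365 of the 24279 tested probes. The actin genes *Acta1* and *Actc1* fell by 3.88 (adjusted p = 2.4e-10) and 2.90 (adjusted p = 9.55e-10), and *Cdkn1c*, the cell cycle inhibitor p57, by 2.71 (adjusted p = 2.44e-07). *Ckm*, muscle creatine kinase, fell by 2.58 (adjusted p = 9.64e-08) and *Cav3*, the muscle caveolin, by 2.44 (adjusted p = 8.71e-09). *Myh8*, the perinatal myosin heavy chain, fell by 1.84 (adjusted p = 4.47e-08), *Tnni2*, fast troponin I, by 1.82 (adjusted p = 1.84e-08) and *Cdh15*, M-cadherin, by 1.71 (adjusted p = 8.27e-07).

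With resveratrol 11 of the 23 fell and 0 rose (median -0.30), beside 8.99% and 7.99% of all tested probes. The count of 11 is not settled: it was 16 with the replicate block, from 5 to 15 without 1 array, and 5 with no filter or with only the 6 arrays compared. With the block 3350 of the 24279 tested probes fell with resveratrol. *Cdkn1c* fell by 1.17 (adjusted p = 0.000852), *Ckm* by 1.04 (adjusted p = 0.000597), *Actc1* by 0.80 (adjusted p = 9.74e-05) and *Myh8* by 0.75 (adjusted p = 0.000287), and these 4 passed under every alternative that has a test.

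With pinosylvin 6 rose and 1 fell (median 0.21), beside 8.28% and 8.27% of all tested probes, while 2 fell without control replicate 3. With the replicate block 11 rose and 2 fell, beside 3954 and 2993 of the 24279 tested probes. In the main test the 1 lower gene was *Myh8*, by 0.44 (adjusted p = 0.00687). The increases, named after their values were seen, included the acetylcholine receptor subunits *Chrng* by 1.08 (adjusted p = 6.29e-05) and *Chrnd* by 0.87 (adjusted p = 0.00238), the troponin gene *Tnnt3* by 0.54 (adjusted p = 0.000919) and the cell cycle inhibitor *Cdkn1a* by 0.33 (adjusted p = 0.00422). *Chrne* and *Tnnc2* made up the 6, with adjusted p of 0.0465 and 0.0408, and each was lost under several alternatives and without several single arrays. For *Chrne* these were any control array, GR24 replicate 1 or 3, pinosylvin replicate 1 or 2 and resveratrol replicate 2. For *Tnnc2* they were control replicate 1 or 3, any GR24 or pinosylvin array and resveratrol replicate 1 or 3, and adjusted p without 1 array went up to 0.150 for *Chrne* and 0.126 for *Tnnc2*.

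Between the stilbenes, 19 of the 23 targets were higher with pinosylvin and 0 were lower (median 0.43), where 1864 of all 24279 tested probes were higher and 1664 were lower. The count was 20 with the replicate block (beside 3507 higher probes), 12 with no filter and from 11 to 20 without 1 array. *Cdkn1c* differed by 1.58 (adjusted p = 0.000167), *Ckm* by 1.28 (adjusted p = 0.00021), *Cdh15* by 0.66 (adjusted p = 0.00472) and *Actc1* by 0.56 (adjusted p = 0.00102). *Chrnd* and *Chrng*, named after their values were seen, differed by 1.45 (adjusted p = 0.000141) and 1.37 (adjusted p = 3.32e-05). Against pinosylvin, all 23 were lower with GR24, beside 6498 of the 24279 tested probes. Against resveratrol 19 were lower and 0 higher, beside 5811 and 6662 probes. With the replicate block these were 20 and 1, beside 6926 and 7929 probes.

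Of 19 known MEF2 targets 15 were tested, and 2 were higher and 10 lower with GR24 (median -0.53), beside 31.5% and 25.5% of all tested probes. *Smpx*, a small muscle protein, was lower with GR24 with a fitted value of -4.13 (adjusted p = 3.55e-10), and -2.10 with normexp. Its signal was near background on all GR24 arrays, so the size of this change is not settled and no lower limit is given. *Myom1* and *Myom2*, the M-band proteins of the sarcomere, fell, with -3.40 (adjusted p = 1.27e-08) and -2.45 (adjusted p = 1.81e-08), and *Myoz1*, a Z-disc protein, fell by 1.32 (adjusted p = 3.32e-05). *Slc2a4*, the insulin-responsive glucose transporter GLUT4, fell by 1.25 (adjusted p = 9.01e-08). The early response genes *Klf2* and *Jun* fell by 0.97 (adjusted p = 0.000258) and 0.70 (adjusted p = 4.38e-06).

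The MEF2 targets that went the other way with GR24 were *Klf4*, a zinc finger factor, by 1.80 (adjusted p = 6.17e-08) and *Hspb7*, a small heat shock protein, by 0.42 (adjusted p = 0.0144). The *Hspb7* call was lost without control replicate 1 or GR24 replicate 2 (adjusted p up to 0.0617) and on slide 1 alone, which leaves 1 higher. With resveratrol 1 rose and 7 fell (median -0.41), beside 7.99% and 8.99%. With the replicate block 10 fell, beside 3350 of the 24279 tested probes. *Klf4* rose by 0.60 (adjusted p = 0.00133), and *Myoz1* fell by 0.73 (adjusted p = 0.00853), *Smpx* by 0.68 (adjusted p = 0.000674), *Myom1* by 0.65 (adjusted p = 0.00827) and *Myom2* by 0.57 (adjusted p = 0.00404).

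With pinosylvin 2 MEF2 targets rose and 0 fell (limma, median 0.16), beside 8.28% and 8.27%, while 4 rose without GR24 replicate 3. With the replicate block 6 rose and 0 fell, beside 3954 and 2993 of the 24279 tested probes. The 2 of the main test were *Smpx*, by 0.88 (adjusted p = 0.00011), and *Slc2a4*, by 0.31 (adjusted p = 0.00892). Between the stilbenes 9 were higher with pinosylvin and 1, *Klf4*, was lower (median 0.48), beside the same 1864 and 1664 probes. With the replicate block these were 12 and 1, beside 3507 and 2816 probes. The higher count was from 6 to 10 without 1 array, and the lower count was 0 without control replicate 1 or any single stilbene array. *Smpx* differed by 1.56 (adjusted p = 1.46e-05), *Hspb7* by 0.68 (adjusted p = 0.00556), *Myom2* by 0.55 (adjusted p = 0.00562) and *Slc2a4* by 0.39 (adjusted p = 0.00348). *Smpx* thus lay above the control with pinosylvin and below it with resveratrol, as *Myog* did in the main test. Neither *Myog* call passed with the arrays of slide 1 alone, and the resveratrol call was lost without several single arrays.

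Promoters of the members and named targets are shown to describe their sequences, and whether a motif bears on a change was not tested. The sequences are from RefSeq on the build GRCr8 and cover 300 bases around the start of a gene, most of them before it. They were searched on both strands for the E-box (CANNTG), for CAGCTG, which is also an E-box, for the MEF3 motif (TCAGGTT), and for the MEF2 consensus, a motif of 10 bases. Of 27457 promoters, the first listed for each gene, 71.6% held an E-box, 15.1% CAGCTG, 4.02% MEF3 and 3.37% the MEF2 consensus. With the last base of the MEF2 consensus left free, a form chosen after the *Myog* sequence was seen, the share was 8.37%. Of the members 7 had a promoter in the table, and *Myod1* and *Mef2c* did not.

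Among these 7 promoters, 2 held an E-box (*Myog* and *Myf6*), 0 held CAGCTG, 1 held MEF3 (*Myog*) and 2 held the MEF2 consensus (*Myf6* and *Mef2a*), or 3 with its last base free. Of 17 named target genes 12 had a promoter, of which 9 held an E-box, 3 CAGCTG, 2 MEF3 and 4 the MEF2 consensus, or 5 with its last base free. *Myf5*, *Actc1* and *Myh8*, which fell with GR24, held none of these motifs. *Hspb7* and *Klf4*, which rose with GR24 in the main test, held the MEF2 consensus and its form with a free last base, respectively. *Hspb7* also held an E-box. A match describes letters and not binding, and no factor's binding was measured.

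The promoters of *Myog* (chr13:48297226-48297525, plus strand), of *Myf6* (chr7:44701264-44701563, minus strand) and of *Smpx* (chrX:41107088-41107387, minus strand) are printed 5′ to 3′, with capitals for the motifs found. In *Myog* these are E-boxes that begin at -157 and -31 from the start of the gene, MEF3 at -103 and the MEF2 form with a free last base at -83. In *Myf6* they are an E-box at -29 and the MEF2 consensus at -76, and in *Smpx* E-boxes at -151, -85 and 38 and the MEF2 consensus at -101.
Myog: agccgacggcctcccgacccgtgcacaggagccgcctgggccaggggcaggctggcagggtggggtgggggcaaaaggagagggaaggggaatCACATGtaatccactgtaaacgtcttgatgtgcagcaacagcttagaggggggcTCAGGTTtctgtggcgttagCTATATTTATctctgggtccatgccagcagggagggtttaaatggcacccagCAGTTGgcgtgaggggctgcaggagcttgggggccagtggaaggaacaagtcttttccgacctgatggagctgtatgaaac
Myf6: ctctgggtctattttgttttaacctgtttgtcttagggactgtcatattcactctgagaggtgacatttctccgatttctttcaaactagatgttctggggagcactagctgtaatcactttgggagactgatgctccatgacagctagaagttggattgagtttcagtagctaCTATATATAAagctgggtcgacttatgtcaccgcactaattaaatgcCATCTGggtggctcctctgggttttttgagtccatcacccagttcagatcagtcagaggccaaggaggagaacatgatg
Smpx: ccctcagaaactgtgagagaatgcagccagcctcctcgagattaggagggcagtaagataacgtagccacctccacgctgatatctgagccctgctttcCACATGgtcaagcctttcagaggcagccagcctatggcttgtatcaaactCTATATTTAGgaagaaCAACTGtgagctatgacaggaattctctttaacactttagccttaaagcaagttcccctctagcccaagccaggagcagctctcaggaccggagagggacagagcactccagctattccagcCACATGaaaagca
*Myf5* and *Myf6* are neighbours on chromosome 7, with starts 8675 bases apart on the same strand. With pinosylvin and with resveratrol *Myf6* fell, while the *Myf5* difference did not pass.

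The genes most like each member were sought among 10733 named genes by the root mean square difference of the profiles over the 12 arrays, each centred on its control mean, with the smallest first. For *Myog* they were *Art1* (0.29), *Stac3* (0.39), which serves excitation-contraction coupling, and *Anxa10* (0.55). For *Myod1* they were *Sit1* (0.25), *Fzd4* (0.28) and *Arpp21* (0.30), and for *Myf5* *Septin8* (0.09), *Tpbg* (0.10) and *Myl12a* (0.10). The *Myod1* signal was not well above background on any GR24 array, so which genes lie nearest to it is not settled. For *Myf6* they were *Pxdn* (0.19) and the DNA replication and repair genes *Cdc45* (0.20) and *Exo1* (0.21).

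The genes most like *Mef2a* were *LOC103694155* (0.14), *Acsbg1* (0.16) and *Sox9* (0.17), and like *Mef2d* *Mmachc* (0.07), *Rnasek* (0.07) and *Dync2i1* (0.08). For *Pax7* they were *Rasa1*, *R3hdm2* and *Tmed3* (0.14 each), and for *Six4* *Zfp322a* (0.12), *Trmt44* (0.13) and *Fam32al1* (0.14). The measure is smaller for members that change little, so its values are not compared between members.

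Marker lists describe which cells the RNA came from, as signals summed over the probes of a list in multiples of the 75th percentile of each array, to which bright probes add most. The gene that adds most to a sum is named as a part of that sum, and the RNA of different genes is not ranked by it. Of 11 markers of differentiated muscle 9 had a probe, all 9 were well above background on all control arrays, and *Myh3*, the embryonic myosin, added most to the sum on every array. The control arrays of this line labelled as myotubes thus carried the RNA of differentiated muscle. The sums were 744, 809 and 700 in the control, 301, 287 and 284 with GR24, 821, 856 and 796 with pinosylvin and 609, 624 and 585 with resveratrol. The GR24 arrays were lowest and the resveratrol arrays lay between them and the control, with the pinosylvin arrays overlapping with the control.

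Of these 9 muscle markers 7 fell with GR24 and 0 rose (limma), where 25.5% of all tested probes fell and 31.5% rose. With resveratrol 5 fell, beside 8.99%. *Myog* is one of these markers, and the others are all among the MyoD family targets above. These counts thus repeat values already given and are not a separate result. The resveratrol count was 3 without control replicate 1, pinosylvin replicate 1 or 2, or resveratrol replicate 1, and 2 without control replicate 2 or resveratrol replicate 3. With pinosylvin 2 rose and 0 fell, beside 8.28% and 8.27%, while 1 fell without control replicate 3. With the replicate block 4 rose and 1 fell, beside 3954 and 2993 of the 24279 tested probes.

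Of 11 markers of undifferentiated myoblasts and satellite cells 8 were tested, and with GR24 1 rose and 4 fell, beside the same shares of all tested probes. The list includes *Pax7* and *Myf5*, and also *Cdh15*, which is counted among the MyoD family targets above. The sums were 76.7, 79.4 and 72.1 in the control, 44.6, 43.9 and 43.3 with GR24, 85.9, 83.3 and 84.7 with pinosylvin and 79.4, 74.9 and 76.8 with resveratrol. *Vcam1* added most to these sums, and *Sdc4* to those with GR24. The GR24 arrays were lowest in this list too, and the pinosylvin arrays highest.

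Of 8 markers of cycling cells 6 were tested, and all 6 fell with each compound, with medians of -2.82, -1.52 and -0.81 for GR24, pinosylvin and resveratrol, beside 25.5%, 8.27% and 8.99% of all tested probes that fell. The sums were 99.99, 98.1 and 92.2 in the control, 29.2, 29.3 and 27.2 with GR24, 46.2, 47.7 and 45.3 with pinosylvin and 55.7, 58.8 and 53.4 with resveratrol. No groups overlapped. *Cdk1* added most to the sums of the control and resveratrol, *Pcna* to those of GR24 and *Mcm2* to those of pinosylvin.

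Markers of other cell types were also present. The 8 fibroblast markers, with *Col1a2* adding most, summed to 490 to 531 in the control, 285 to 303 with GR24, 464 to 494 with pinosylvin and 429 to 445 with resveratrol. With GR24 1 of them rose and 7 fell, beside 31.5% and 25.5% of all tested probes, and the increase was lost without control replicate 3 or GR24 replicate 1 or 2 (0 higher). Of the 6 adipocyte markers *Pparg*, *Adipoq* and *Lep* were never well above background, and the 1 tested gene, *Cebpa*, rose by 1.18 with GR24, by 0.32 with pinosylvin and by 0.43 with resveratrol. The pinosylvin call (adjusted p = 0.0102) was lost with no filter, with only the 6 arrays compared and with the mean over probes. The adipocyte sums were 1.64 to 1.80 in the control, 3.64 to 3.91 with GR24, 2.02 to 2.21 with pinosylvin and 2.15 to 2.39 with resveratrol. Of the 8 cardiac and smooth muscle markers *Nppa*, *Nkx2-5*, *Gata4* and *Cnn1* were never well above background. Their sum, mostly *Acta2*, the smooth muscle actin also made by muscle precursors, was 26.8 to 29.9 in the control, 2.08 to 2.48 with GR24, 30.2 to 35.3 with pinosylvin and 24.0 to 28.5 with resveratrol, and 3 of 4 tested genes fell with GR24, beside the same 25.5%.

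The part of these cell types in the changes of the members was not tested. RNA came from whole cultures, so fewer cells of a type and less RNA per cell cannot be told apart. All values are of RNA, not protein or binding, and each group rests on 3 arrays at a single dose and time.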

How the data were processed

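RNA of 12 L6 myotube cultures, 3 per group, was measured on Agilent 1-colour arrays. The authors deposited the scanner output of Agilent Feature Extraction 12.0.0.7, whose processed signal is an intensity, corrected for background on each array and not normalized between arrays. A series table deposited by the authors holds log2 values normalized between arrays by a method that is not stated, which served as an alternative. Per array 58.0% to 64.3% of 58717 spots were well above background and none was saturated, and with 3 arrays per group the number of arrays limits the precision.

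Outlier spots were set to missing, control spots were left out, spots of a probe were averaged, and the log2 of the array's 75th percentile over probes was subtracted. All 12 arrays entered a fit with a mean per group in limma 3.58.1 (R 4.3.3), with eBayes and Benjamini-Hochberg adjustment at 0.05. Of 45598 probes 24279 were tested, and 87.4% of these were well above background on all 12 arrays. RefSeq accessions, version ignored, named 21109 probes, and where a gene had several, the probe of highest mean level was used. The steps were tested on simulated data. Python 3.11.15 with pandas 2.3.3, numpy 2.4.6 and matplotlib 3.10.9 made summaries and figures.

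Named were all members, genes of the partner and MEF2 regulator lists that passed with an absolute log2 fold change of at least 0.58 in a comparison with the control, up to 12 per list, the 8 targets per list with the largest GR24 changes and those that went the other way, the 3 genes most like each member, and the defining markers. The members and lists were chosen with earlier results of these data known.

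Same-numbered replicates were checked for pairing on the residuals: 18 of 18 pairs of arrays with the same number correlated above 0.1 (0.19 to 0.74), and the 36 other pairs ran from -0.66 to 0.48, so the numbers pair the samples. The main fit did not use this pairing. Across all probes 37.6% differed between the slides, each of which holds all groups. Slide 2 holds only replicate 3, so this difference cannot be told apart from one between replicates. Alternatives changed the normalization (quantile), the background correction (normexp, offset 50, with scaling or quantile normalization), the source (the deposited table), the filter (none, or a signal well above background on every array), the probes behind the percentile (those of the stricter filter), the arrays fitted (the 6 compared, each slide alone, or all but 1 in turn), the block (replicate number or slide), the variance model (trend and robust), the probe of a gene (the mean over its probes) and the outlier spots (kept). The files hold no mean signal per spot, so normexp used the median signal. Chosen after seeing the data were the percentile over all spots and the deposited table with the replicate block. Slide 2 alone has 1 array per group and gives no test.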

Additional observations from a re-analysis of the deposited data

How the results depend on the processing

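Of 54 results, 9 member probes in 6 comparisons, 29 passed, and 20 of these passed under every alternative with a test, among them all 6 with GR24 against the control and all 5 with GR24 against resveratrol. The other 9 were lost under at least 1 alternative, 6 of them without some single array. Among list genes this was followed for 53, all tested targets with the partners and regulators that are named (for having passed) or serve as markers, so not for the full lists. Of their 318 results 208 passed, and 161 of these did so under every alternative with a test.

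The main test did not pair the samples, although the residuals of same-numbered replicates correlated. Pairing entered only in alternatives, with the replicate number as a block. Only replicate 3 was on slide 2, so a slide difference cannot be told apart from a replicate difference. With the replicate number as a block the pinosylvin count of probes past the threshold went from 4019 to 6947. The resveratrol count went from 4123 to 6769, and that between the stilbenes from 3528 to 6323. With the slide as a block the counts were 7074, 6869 and 6443, and in the deposited table with the replicate block 6540, 6641 and 5837. With no filter on dim probes, where more probes are tested, they were 2409, 2680 and 1975, and with only the 6 arrays compared the pinosylvin count was 2638. Without 1 array the count between the stilbenes ran from 2146 to 3683. For members, the resveratrol count of 3 became 5 with the replicate block, the slide block and the deposited table with the block, and the count of 4 for GR24 against resveratrol became 7 with the slide block and with the deposited table and the block (4 to 7 without 1 array). The replicate block added *Mef2d* with resveratrol and for GR24 against resveratrol, and *Six4* in 4 comparisons, for instance *Six4* with pinosylvin at an adjusted p of 0.0229 (0.154 without it), and it changed no other member call.

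With the filter that asks for a signal well above background on all 12 arrays, which leaves out the dim *Myod1* and *Myf6*, 3 members passed with GR24, 1 with resveratrol and 1 between the stilbenes. Between the stilbenes the deposited table and no filter each gave 1 as well (1 to 2 without 1 array). With the mean over the probes of a gene, whose probes differ in direction, *Mef2d* turned to 0.30 for GR24 against pinosylvin and 0.57 for GR24 against resveratrol, and *Fzd4* with pinosylvin turned from -0.33 to 0.0762. With the percentile over all spots, the split for GR24 against resveratrol was 8707 probes higher and 4875 lower, against 6662 and 5811. Apart from the changes explained by the construction of an alternative, the cause was not tested. Signal near background limits the sizes for *Myod1*, *Myf6*, *Pax7*, *Smpx*, *Mapk11* and *Tnni3*.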

Other observations

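*Acta2*, *Tnni3* and *Myh6*, muscle proteins of the smooth or cardiac type that were named after their values were seen, were lower with GR24. The other tested gene of that list, the smooth muscle myosin *Myh11*, did not pass with GR24. *Acta2* had a log2 fold change of -4.26 (limma adjusted p = 3.67e-09) and *Myh6* -1.69 (adjusted p = 1.04e-06). *Tnni3* had a signal near background on all GR24 arrays and was at least 7.19-fold lower (adjusted p = 9.78e-06). This limit holds for one background correction only, so the size is not settled. *Vcam1*, an adhesion protein of myoblasts, fell by 2.15 (adjusted p = 1.02e-07), while *Sdc4*, a syndecan of satellite cells, rose by 0.67 with GR24 (adjusted p = 4.28e-06) and by 0.48 with pinosylvin (adjusted p = 0.000352).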
